A study of Mus musculus with 5 samples.

Results

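Expression of the genes for nitric oxide synthesis and arginine supply was examined in mesenchymal stem cells (MSC) of mouse bone marrow after culture beside activated T cells. Every probe set that the array annotation gives to Nos2, Slc7a2, Gch1 or Arg2 was taken, which gave 4 probe sets, 1 per gene, among the 3373 in the deposited table. MSC are stromal cells of the marrow, here in primary culture in Mesencult medium. In the co-culture group (2 arrays) MSC were kept for 48 h in a transwell, where a membrane separates the cells while soluble products pass, with 10 purified T cells for each MSC, the T cells having been activated by antibodies to CD3 and CD28. The other group (3 arrays) was MSC alone. All arrays carry the label of a biological repetition. The labels do not say how many animals gave the cells or how long MSC alone were kept, and they name no genetic change in either group.

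Nitric oxide synthases oxidise arginine to citrulline and nitric oxide. The inducible enzyme, encoded by Nos2, is made after inflammatory signals such as interferon-gamma. It works with the cofactor tetrahydrobiopterin, whose synthesis from GTP starts with GTP cyclohydrolase 1, encoded by Gch1. Arginine enters cells through cationic amino acid transporters, 1 of which, CAT-2, is encoded by Slc7a2. The mitochondrial arginase encoded by Arg2 splits arginine into ornithine and urea and so draws on the same substrate. Nitric oxide made by mouse MSC is known as an inhibitor of T cell proliferation.

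All values are on a log2 scale and come from RMA, a method that corrects background, normalises arrays by quantiles and joins the probes of each set. They carry no detection call, and the level of a probe set cannot be compared with that of another. Array medians over the table lay between 7.42 and 7.50 in co-culture and between 7.61 and 7.64 in MSC alone. The table is not a whole array. In all 3373 probe sets the arrays of one group lay entirely above those of the other, by 0.34 or more, so it was selected on the comparison made here. The 4 genes were also chosen with this comparison in view. Their differences are therefore given as a description, with the moderated standard error (SE) of limma as an error and no test. Other probe sets of these genes were not analysed here.

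All 4 probe sets were higher in co-culture. Over the whole table, 48.7% of probe sets were higher there and passed limma, with an adjusted p below its threshold of 0.05. Nos2 was 8.98-fold, Slc7a2 4.58-fold, Gch1 4.24-fold and Arg2 1.81-fold higher. Differences of at least 4-fold, and so of at least 2-fold, were found in 3 of the 4; among all probe sets 7.62% were at least 4-fold and 27.5% at least 2-fold higher. Because the comparison chose the genes, nothing can be read from the gap between these shares. The genes differed in spread as well as in fold: the arrays of each group lay closer together for Nos2 than for Slc7a2 or Gch1. Those of MSC alone lay far apart for Slc7a2 and those of both groups for Gch1.

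**Figure D1:**
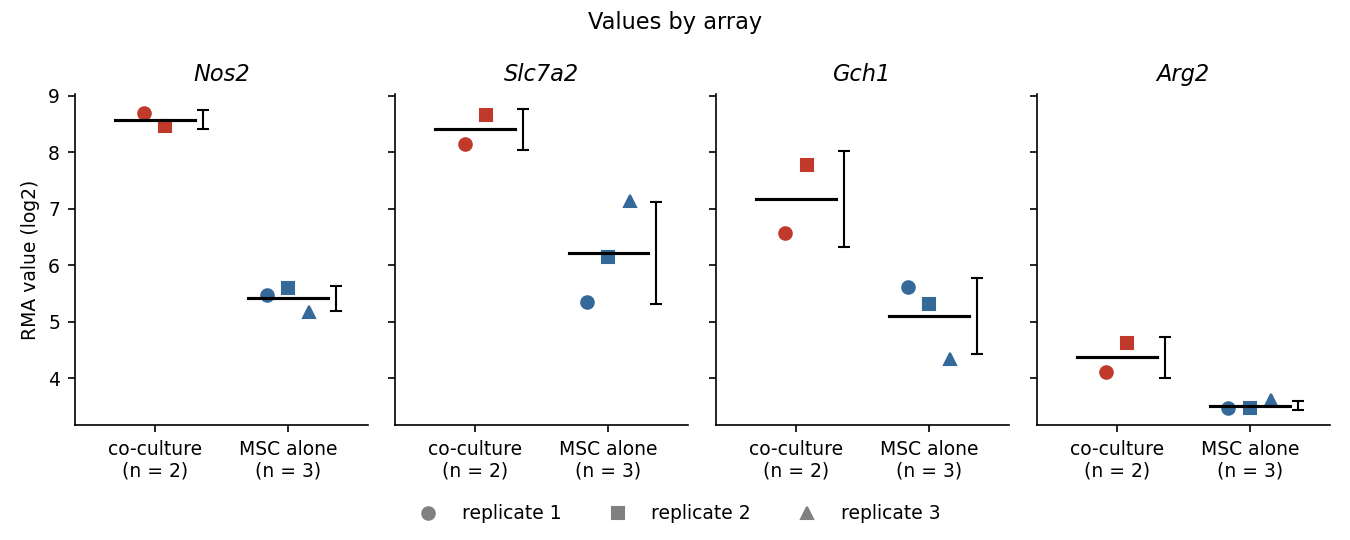
RMA values on the log2 scale of the 4 probe sets, 1 point per array, in co-culture (2 arrays) and MSC alone (3 arrays); horizontal lines are group means and bars beside them the SD. The groups do not overlap in any panel, and for Nos2 the gap of 2.86 between them is wider than for the other genes.

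Nos2 (Entrez 18126, probe set 1420393_at) stood at 8.70 and 8.46 in co-culture replicates 1 and 2, against 5.47, 5.60 and 5.17 in replicates 1, 2 and 3 of MSC alone. Both co-culture arrays were high and all MSC arrays low, and the lowest co-culture array lay 2.86 above the highest MSC array. The means were 8.58 ± 0.17 in co-culture (SD, n = 2) and 5.41 ± 0.22 in MSC alone (SD, n = 3), a difference of 3.17 ± 0.21 (SE) on the log2 scale. Each of the 6 pairs of a co-culture array with an MSC array gave a difference between 2.86 and 3.53, or between 7.25-fold and 11.6-fold. Among the 1642 probe sets that were higher in co-culture, this difference had rank 69. The SD of Nos2 was larger than that of 54.7% of the probe sets in MSC alone and 38.5% in co-culture, an ordinary spread for this table. The gene table of RefSeq gives Nos2 3 curated mRNAs, which 1 probe set does not separate. The synthase itself was thus the gene of the 4 with the widest gap between groups and, in co-culture, the smallest spread. The genes of the neuronal and endothelial synthases, Nos1 and Nos3, were not analysed here.

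Gch1 (Entrez 14528, probe set 1420499_at) stood at 6.58 and 7.77 in co-culture replicates 1 and 2, against 5.62, 5.32 and 4.34 in replicates 1, 2 and 3 of MSC alone. The groups did not overlap, but co-culture replicate 1 lay 0.96 above MSC replicate 1, less than the 1.20 between the co-culture arrays. The means were 7.17 ± 0.85 in co-culture (SD, n = 2) and 5.09 ± 0.67 in MSC alone (SD, n = 3), and the difference was 2.08 ± 0.50 (SE). The 6 pairs of arrays gave between 1.94-fold and 10.8-fold. Without co-culture replicate 1 the fold was 6.41, and without co-culture replicate 2 it was 2.80, so either array moves the size by over 1.5 times. The spread in MSC alone was larger than that of 95.8% of the probe sets in the table, and the spread in co-culture larger than that of 95.1%. The cofactor enzyme was therefore higher in both co-culture arrays by amounts that 5 arrays do not fix well.

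The promoter of Gch1 is shown because of the 4 genes it is the 1 matched in the RefSeq promoter table (assembly GRCm38.p6). The sequence covers 250 bases before to 50 bases after the start, at chr14:47189364-47189663 on the minus strand, and capitals mark the motifs found.
Gch1: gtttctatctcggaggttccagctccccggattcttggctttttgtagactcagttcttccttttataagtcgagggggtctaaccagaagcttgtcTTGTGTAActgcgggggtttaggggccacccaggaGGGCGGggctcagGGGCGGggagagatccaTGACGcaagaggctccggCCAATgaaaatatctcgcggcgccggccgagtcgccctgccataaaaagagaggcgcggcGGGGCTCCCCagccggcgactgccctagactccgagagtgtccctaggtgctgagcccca
Both strands were searched for 7 motifs, and no matches of different motifs overlapped. From the 5′ end the capitals mark a C/EBP motif on the minus strand, 2 GC boxes, the core of a cAMP response element, a CCAAT box and a stretch that begins 10 bases before the start and fits the NF-kB consensus on each strand. The C/EBP motif, written TTNCNNAA, occurs in 40.7% of the 32851 promoters of the same length in the table. The GC box, written GGGCGG, occurs in 35.7% of them, the CCAAT box in 37.4% and the NF-kB consensus in 8.46%. The core of the cAMP response element was taken as the letters TGACG, which 20.8% of promoters hold. The interferon-gamma activated site TTCNNNGAA, found in 8.3% of promoters, was not among the letters of this window. Neither was the core of the interferon-stimulated response element, GAAANNGAA, found in 8.56%. A match is a description of the sequence, and the arrays do not measure binding.

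Of the other 7 listed genes of tetrahydrobiopterin synthesis, recycling and control, 1 was in the table: Pts, encoding the enzyme that acts after GTP cyclohydrolase 1. It fell in co-culture, with 5.98 and 5.58 in the co-culture arrays against 7.22, 6.84 and 6.82 in MSC alone. The difference was -1.18 ± 0.22 (SE) on the log2 scale, or 2.26-fold lower, with an adjusted p of 0.0055 in limma (Benjamini-Hochberg over all probe sets). Of all probe sets 51.3% were lower and passed the test. The table was selected on this comparison and all its probe sets pass. The adjusted p of Pts and those of other genes below are therefore a description and not an error rate. Gch1 and Pts, neighbouring steps of the same pathway, thus stood on opposite sides of MSC alone. Spr, Qdpr and the regulator gene Gchfr were among the 6 not analysed here.

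Slc7a2 (Entrez 11988, probe set 1426008_a_at) stood at 8.15 and 8.67 in co-culture replicates 1 and 2, against 5.35, 6.15 and 7.14 in replicates 1, 2 and 3 of MSC alone. MSC replicate 3 was the highest control and lay 1.01 below the lower co-culture array. The means were 8.41 ± 0.37 in co-culture (SD, n = 2) and 6.21 ± 0.90 in MSC alone (SD, n = 3), a difference of 2.20 ± 0.51 (SE). The range of 1.80 within MSC alone was over 3 times that of 0.52 within co-culture, and its SD exceeded that of 98.3% of the probe sets in the table. Over the 6 pairs of arrays the fold lay between 2.01 and 9.99. RefSeq lists 2 curated mRNAs for Slc7a2, and the suffix _a_at marks a probe set whose probes match alternative transcripts of a gene, so forms of the transporter were not separated here.

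Slc3a2, the heavy chain that carries other amino acid transporters to the membrane, was the only other of 6 listed genes of arginine transport in the table. It was 2.13-fold higher, a log2 difference of 1.09 ± 0.27 (SE), with 12.24 and 12.43 in the co-culture arrays against 11.00, 11.01 and 11.70 in MSC alone (adjusted p 0.00858 in limma). As for Slc7a2, MSC replicate 3 was the highest control. The other arginine transporter genes, Slc7a1 among them, and the genes that rebuild arginine from citrulline, Ass1 and Asl, were not analysed here.

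Arg2 (Entrez 11847, probe set 1418847_at) stood at 4.11 and 4.63 in co-culture replicates 1 and 2, against 3.47, 3.46 and 3.61 in replicates 1, 2 and 3 of MSC alone. The MSC arrays lay within 0.15 of each other and the co-culture arrays 0.51 apart. The means were 4.37 ± 0.36 in co-culture (SD, n = 2) and 3.51 ± 0.08 in MSC alone (SD, n = 3), a difference of 0.86 ± 0.21 (SE), or between 1.42-fold and 2.24-fold over the 6 pairs of arrays. All 5 values lie in the low part of the table's range of 2.62 to 14.59, where RMA compresses differences and no detection call is at hand. The rank of 1131 among the 1642 higher probe sets placed the difference below their median of 1.07. Arg1, the liver-type arginase gene, was not analysed here.

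**Figure D2:**
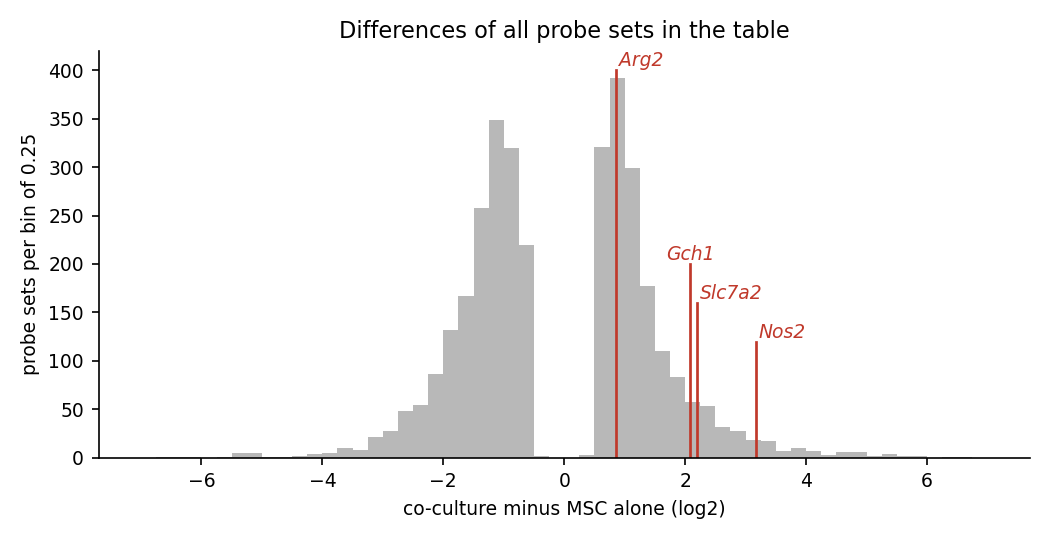
Differences of co-culture minus MSC alone on the log2 scale for all 3373 probe sets, counted in bins of 0.25, with the 4 probe sets marked by lines. The empty middle reflects the selection of the table; Nos2 at 3.17 lies in the upper tail and Arg2 at 0.86 in the main body of the higher probe sets.

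The arrays that were high or low inside a group were not the same for each gene. In co-culture, replicate 2 was above replicate 1 by 1.20 for Gch1, 0.52 for Slc7a2 and 0.51 for Arg2, and below it by 0.24 for Nos2. MSC replicate 3 differed from the mean of replicates 1 and 2 by 1.40 for Slc7a2 and 0.14 for Arg2, and by -1.13 for Gch1 and -0.37 for Nos2. MSC replicate 3 was thus the control nearest to co-culture for the transporter and the arginase, and the farthest from it for the cofactor enzyme and the synthase. The 6 pairwise differences of Arg2, at most 1.16, all lay below those of Nos2, at least 2.86. Those of Slc7a2 and Gch1 reached up to 3.32 and 3.44 and overlapped the range of Nos2. In co-culture replicate 2 minus MSC replicate 1, Slc7a2 (3.32) exceeded Nos2 (2.99). In co-culture replicate 2 minus MSC replicate 3, Gch1 (3.44) exceeded Nos2 (3.29). With any 1 array left out, however, Nos2 stayed at 3.04 or more, above Slc7a2 (at most 2.66) and Gch1 (at most 2.68). The order of Slc7a2 and Gch1 is within the spread between arrays.

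**Figure D3:**
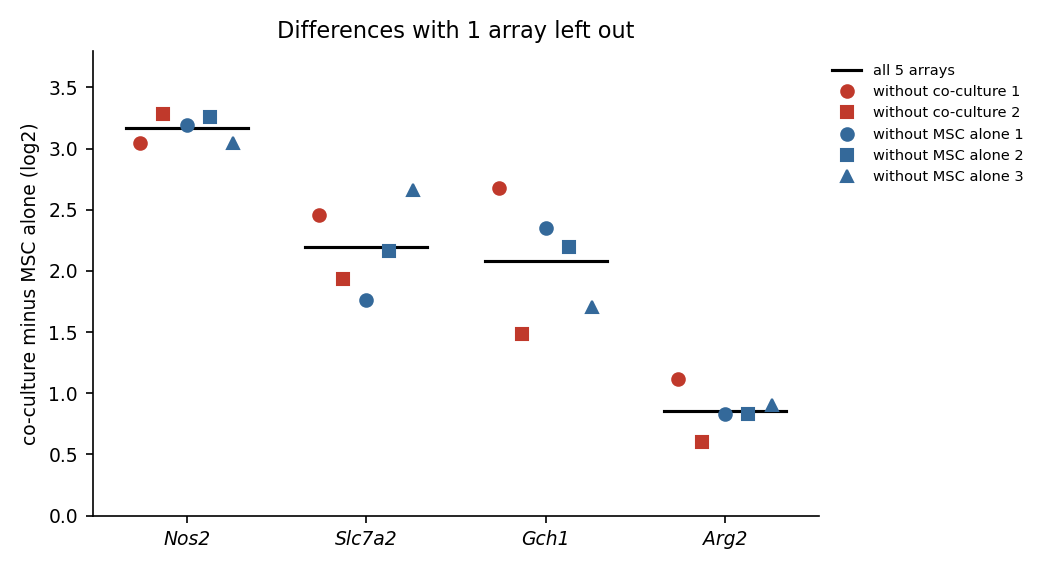
Difference of co-culture minus MSC alone on the log2 scale for each gene, with all 5 arrays (line) and with 1 array left out (points, coloured by the group of the array left out). Nos2 stays between 3.04 and 3.29, while Gch1 runs from 1.48 to 2.68 and Slc7a2 from 1.76 to 2.66.

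Besides the 4 genes, 82 genes were listed in 8 groups around nitric oxide and arginine, and the table held 11 of them. Of these, 8 rose and 3 fell in co-culture; of the 2190 named genes in the table, 1057 were higher and 1133 lower. The median size of the difference, without its sign, was 1.24 on the log2 scale in the 11 genes and 1.13 in all named genes. The signed medians were 1.10 and -0.61; with no small differences in the table, their signs show only which direction held more genes. The other 71 were not analysed here. The adjusted p of the 11 genes in limma lay between 0.00112 and 0.00931. Every probe set of the table passed the same test (100%), so passing it says nothing about these genes.

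Besides Arg2, the genes from the list of arginine use in the table went both ways. They act in linked polyamine, creatine, proline and ornithine pathways and not on arginine itself. Azin1, an antizyme inhibitor that favours polyamine synthesis, rose by 1.24 ± 0.22 (SE), with 12.07 and 12.17 in the co-culture arrays against 10.78, 11.18 and 10.67 in MSC alone; its other probe set rose by 1.23. Sat1, the acetyltransferase that starts polyamine breakdown, rose by 1.28 ± 0.31, with 11.52 and 12.09 in co-culture against 10.07, 10.64 and 10.87 in MSC alone. In both polyamine genes the groups did not overlap, as in 100% of the table's probe sets. Gamt, which makes creatine from an arginine-derived precursor, fell by 1.52 ± 0.22, with 6.26 and 5.94 in co-culture against 7.61, 7.38 and 7.87 in MSC alone. Aldh18a1, an enzyme of proline and ornithine synthesis, fell by 1.12 ± 0.29, with 10.11 and 9.67 in co-culture against 10.94, 10.67 and 11.45 in MSC alone. The probe set of Aldh18a1 ends in _x_at and may bind related transcripts, and its adjusted p in limma was 0.0519 without co-culture replicate 2. Of 22 listed genes of arginine use 17 were not analysed here, the ornithine decarboxylase gene Odc1 among them.

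The 5 genes in the table among 16 listed receptors, kinases and factors that act on Nos2 transcription all rose, beside 48.7% of all probe sets that were higher and passed the test. Cebpd, a C/EBP factor gene, rose by 2.19 ± 0.19 (SE), with 10.58 and 10.64 in the co-culture arrays against 8.27, 8.63 and 8.35 in MSC alone (adjusted p 0.00112 in limma). Its relative Cebpb rose by 1.44 ± 0.34, and its other probe set rose by 1.74. The kinase genes Jak2 and Jak1, which relay the interferon-gamma receptor, rose by 1.45 ± 0.26 and 1.10 ± 0.27. Tnfrsf1a, the gene of a receptor for tumour necrosis factor, rose by 0.80 ± 0.19. Irf1, Nfkb1 and Rela were among the 11 not analysed here. None of the 17 listed partners of the NOS2 protein and 9 listed targets of nitric oxide, such as the soluble guanylate cyclase genes, was analysed here.

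**Figure D4:**
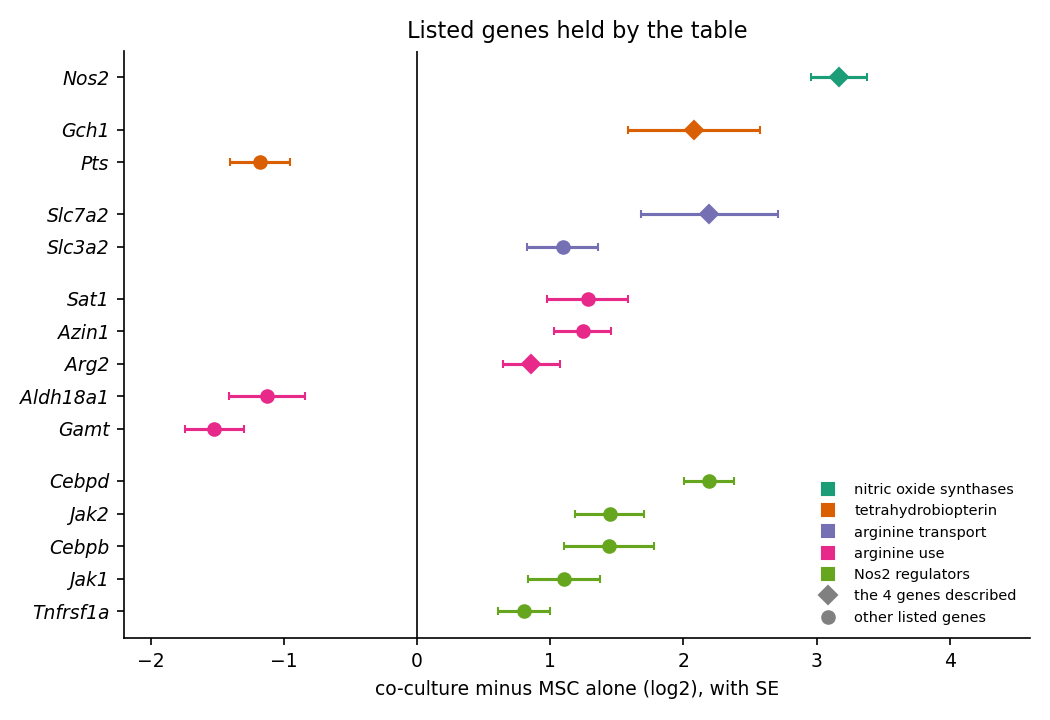
Difference of co-culture minus MSC alone on the log2 scale, with limma's SE, for the 15 listed genes held by the table, by list; diamonds are the 4 genes described and circles the others. Pts, Aldh18a1 and Gamt lie below 0 and the other 12 above it.

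For each of the 4 genes the 3 genes with the most similar profile were found by the root mean square distance over the 5 arrays, after subtracting the mean of MSC alone, among the other 2189 named genes. Nos2 was nearest to Ptgir, the prostacyclin receptor gene (distance 0.147), Batf2, a leucine zipper factor gene (0.181), and Vcam1, an adhesion molecule gene (0.207). Ptgir stood at 7.52 and 6.95 in the co-culture arrays against 4.31, 4.12 and 3.79 in MSC alone. Gch1 was nearest to Fas, a death receptor gene (0.154), Plscr1, a phospholipid scramblase gene (0.178), and Vps37b, a gene of an endosomal sorting complex (0.248). Like Gch1, Fas was lowest in MSC replicate 3 (6.64, against 7.70 and 7.53) and higher in co-culture replicate 2 than in replicate 1 (9.72 and 8.61). Slc7a2 was nearest to Pacs2 (0.167), which was also highest in replicate 3 among MSC arrays, then Acyp2 (0.350) and Fam171b (0.367). Arg2 was nearest to Morc3 (0.0359), Ptpn14 (0.0426) and Kdm7a (0.0515). All these genes also had small differences between groups, and whether that makes the distances small was not tested. No gene was among the nearest of more than 1 of the 4. The nearest genes were picked over these same arrays, so an order of arrays shared with them is favoured by the choice and is no separate result. The distances describe 5 arrays that share a design and a selected table.

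**Figure D5:**
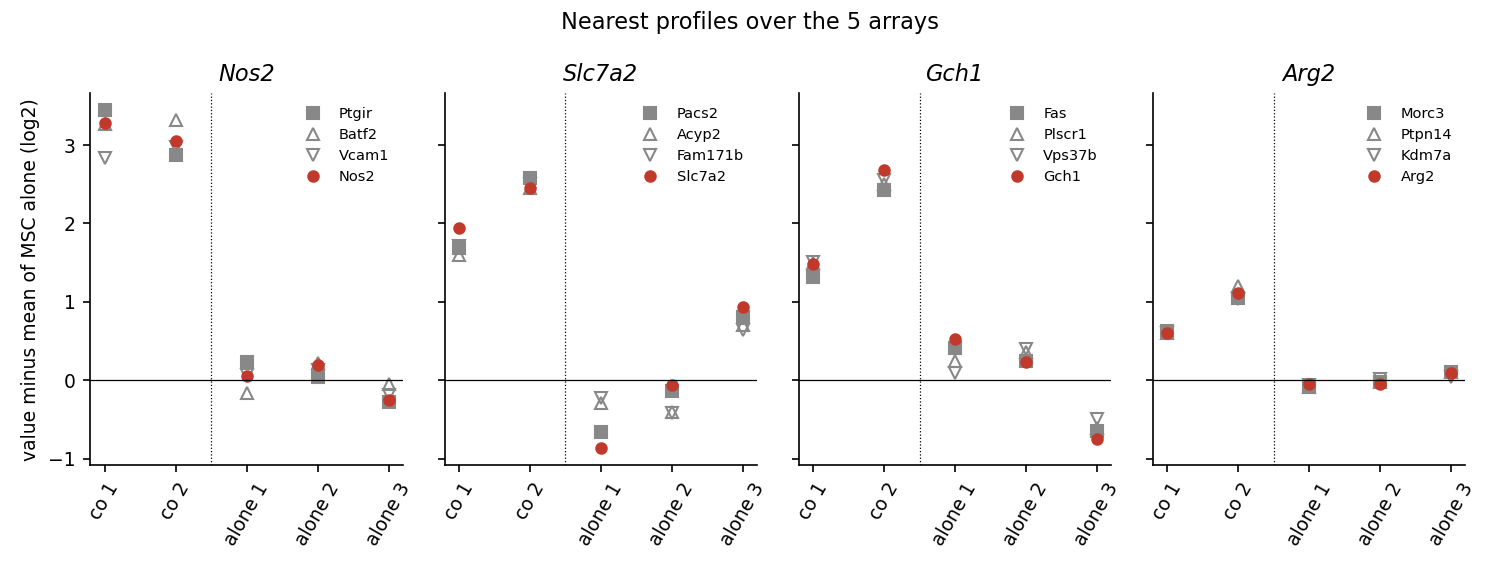
Value minus the mean of MSC alone on the log2 scale in each array (co, co-culture; alone, MSC alone) for the 4 genes (filled circles) and the 3 genes nearest to each. For Slc7a2 and Gch1 the nearest genes, picked over these same arrays, follow the opposite places of MSC replicate 3, at 0.93 above and 0.76 below the mean.

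Of 14 listed markers of MSC and stroma 7 were in the table and 7, among them Thy1, Eng, Nt5e and Ly6a, were not analysed here. The table was selected for groups that differ, so a marker of steady level would be missing from it. The cell type can therefore not be checked with these values. The sum of the log2 values of the 7, in which rises and falls offset each other, was between 63.0 and 63.6 in co-culture. In MSC alone it was between 68.0 and 69.4. The markers went both ways: 5 were lower and 2 higher in co-culture. Pdgfra, a receptor for platelet-derived growth factor, was higher by 3.77 ± 0.70 (SE) on the log2 scale, at 11.08 ± 0.44 in co-culture (SD, n = 2) and 7.31 ± 1.26 in MSC alone (SD, n = 3), and Vcam1 was higher by 2.91 ± 0.19 (SE). Col1a1, a collagen gene of stroma, stood at 9.21 ± 0.30 in co-culture (SD, n = 2) and 13.16 ± 0.35 in MSC alone (SD, n = 3). The other lower markers were Cxcl12, Pdgfrb, Alcam and Cd44, with log2 differences of -3.52, -2.55, -1.08 and -0.86. Macrophages can also make NOS2. Of 16 macrophage and monocyte markers the 2 in the table were higher in co-culture. Mpeg1 averaged 9.12 ± 0.44 in co-culture and 4.64 ± 0.22 in MSC alone, and Ctss 6.25 ± 0.51 in co-culture and 3.36 ± 0.29 in MSC alone (SD, n = 2 and n = 3). The sum of their log2 values was between 14.7 and 16.1 in co-culture and between 7.48 and 8.47 in MSC alone. Both markers and Nos2 were higher in co-culture replicate 1 than in replicate 2, while Gch1, Slc7a2 and Arg2 were lower there. An order of 2 arrays does not link genes. The part of macrophages in the values of Nos2 and the other genes was not tested. The defining markers Ptprc, Adgre1, Itgam and Csf1r, all 12 T cell markers and all 7 endothelial markers were not analysed here. In RNA from whole cultures, more cells of a type and more RNA per cell cannot be told apart.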

How the data were processed

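RNA of 5 cultures was measured on Affymetrix arrays. The deposited table holds log2 values. The submitters' processing notes name RMA as the method of the authors, without a version. Its rule of selection and any genome build are not given in the sources used here. The array annotation gave 1 gene to 3013 probe sets, several to 69 and none to 291. Entrez identifiers of 3010 matched the RefSeq gene table (GRCm38.p6), which changed 0 symbols. A gene with several probe sets was represented by that with the highest mean.

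limma 3.58.1 under R 4.3.3 (lmFit and eBayes, all 5 arrays, no covariate, no filter, two-sided, Benjamini-Hochberg over 3373 probe sets, threshold 0.05) was run on the log2 values and tested on simulated data. The number of arrays limits the precision, and selection for separated groups favours small errors and large differences. Genes, lists and alternatives were chosen with earlier results of these data known. Named are all probe sets of the 4 genes, up to 6 listed pathway genes per list in the table and the 3 nearest genes of each. All listed marker genes in the table are given values, which was decided after these were seen. Promoters are those of RefSeq.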

Additional observations from a re-analysis of the deposited data

How the results depend on the processing

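Because the groups do not overlap in any probe set, leaving out an array could not turn the sign of any difference. For the 4 genes and for the other named genes only the sizes are informative. The alternatives were arrays centred on their medians, other estimates of the spread, a filter on dim probe sets, a replicate block and leaving out each array. Centring added 0.16 on the log2 scale to every difference and gave 3.33 for Nos2, 2.36 for Slc7a2, 2.25 for Gch1 and 1.02 for Arg2. In a table selected on this comparison the medians of the groups need not be equal. The centred values are therefore not a better normalisation. With 1 array left out the differences lay between 3.04 and 3.29 for Nos2, 1.76 and 2.66 for Slc7a2, 1.48 and 2.68 for Gch1, and 0.60 and 1.11 for Arg2. The ends for Arg2 came from leaving out co-culture replicate 2 (0.60) and replicate 1 (1.11). A lone co-culture array is assumed to vary like the MSC arrays. Without the dimmest 25% of probe sets Gch1 and Arg2 were left out; each gene has 1 probe set, so no other probe set could be used. The replicate block gave 3.04, 2.66, 1.70 and 0.91 for Nos2, Slc7a2, Gch1 and Arg2. These must equal the differences without MSC replicate 3, because no co-culture array shares its number. For the sizes the block is therefore not a separate alternative. The samples share only a number: deviations of same-numbered arrays correlated with r = 0.221 and 0.32 over probe sets, and only 2 numbers are shared. Those of co-culture replicate 1 and MSC replicate 3, which share no number, gave 0.106. The deviations of 2 co-culture arrays mirror each other, so each r has a counterpart of opposite sign. These correlations cannot show a pairing. Counts of the other pathway genes called were 8 higher and 3 lower in all alternatives, the block included, except for 2 lower without co-culture replicate 2, where Aldh18a1 had an adjusted p of 0.0519 in limma. For Fas the limma fit without moderation gave an adjusted p of 0.0518; of 228 values of the 23 other named genes under alternatives, 226 kept their direction and side of the threshold. Because every probe set of the table separates the groups and passes the test, these counts do not measure how firm the differences are. By Pearson's r 2 of the 12 nearest genes were shared with the distance used here.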
